A study of Mus musculus with 4 samples.

Results

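The replication-dependent histone genes were examined in SV40-transformed mouse embryonic fibroblasts that lack both BAX and BAK. Probe sets were taken as members where the array annotation gave a symbol of the families H1f1 to H1f5, H2ac, H2bc, H3c or H4c, or an older symbol beginning Hist1h to Hist4h. This gave 52 of 35512 probe sets, or 52 of the 23410 that the annotation lists with a gene symbol. The members carry 62 distinct histone symbols. Of the 52, 26 carry 1 symbol and 26 carry several, and each of the latter was treated as 1 entry. By class there are 4 probe sets of H1, 6 of H2A, 16 of H2B, 13 of H3 and 12 of H4, and 1 that is shared by H2bc6 and H1f4.

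The series holds 4 conditions with 1 array each: GFP mock, GFP etoposide, p63 mock and p63 etoposide. All cells were fibroblasts of C57BL/6 background, prepared at embryonic day E13.5, with the BAX/BAK double knockout and SV40 transformation in common. The GFP cells had received a retrovirus for GFP and served as the control. The p63 cells carried a retrovirus for p63, a DNA-binding relative of p53, and its species and isoform were not stated in the labels. Cells were mock-treated or treated for 6 h with etoposide, which poisons topoisomerase II and leaves double-strand breaks. The etoposide concentration has the number 10 in all label fields, in µg per mL in one field and in µg per µL in others, so its unit is uncertain. The large T antigen of SV40 inactivates p53 and RB, so cell cycle control in these cells is not that of primary fibroblasts, and no label says whether a line is 1 clone.

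Replication-dependent histone genes supply the core histones H2A, H2B, H3 and H4 and the linker histone H1 that package newly copied DNA. They lie in clusters of many near-identical copies and are transcribed mainly during S phase under NPAT, a coactivator that cyclin E with CDK2 phosphorylates. Their mRNAs end in a stem-loop bound by SLBP instead of a poly(A) tail, and they are degraded quickly when DNA synthesis stops. The labels name a NuGEN whole-transcriptome kit, whose primers include random ones, so RNA without a poly(A) tail can be copied.

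Values are RMA signals on the log2 scale as deposited, and a difference of 1 on it is 2-fold. With 1 array per condition there is no spread between replicates, and differences are given by their size with no test and no error. A probe set was called lower or higher where the difference reached 1. The brightness filter asked for at least 1 array at or above 5.87, the 50th percentile of the values of probe sets with 1 symbol, which kept 12629 named probe sets and 46 of the 52 members. Signals of different probe sets depend on their probes and were not set against each other.

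The array-wide facts that touch these values are few. Trp63 read 4.87 and 5.59 in mock- and etoposide-treated GFP cells and 8.75 and 9.29 in p63 cells, so it was high on both arrays labelled p63. The array of p63 mock had the narrowest spread of signal over all probe sets, an SD of 2.28 against 2.37 to 2.39 on the others. The median difference of named probe sets past the filter was -0.08 after etoposide in GFP cells, 0.09 after etoposide in p63 cells, -0.14 with p63 in mock-treated cells and 0.02 with p63 in etoposide-treated cells. Of the fibroblast markers, 7 of 10 passed the filter, among them Col1a1 and Vim, while Thy1, Pdgfra and Lum stayed below it on all arrays. Of the markers of other cell types, 0 of 4 endothelial, 1 of 4 haematopoietic (Cd68) and 3 of 6 epithelial genes passed. The 3 epithelial ones were Krt5, Krt14 and Krt8. Their log2 values summed to 16.4, 17.0, 27.0 and 25.9 on the arrays of GFP mock, GFP etoposide, p63 mock and p63 etoposide. In log2 the p63 differences were 4.68, 4.94 and 1.01 in mock-treated cells and 4.48, 4.72 and -0.28 in etoposide-treated cells, in the order Krt5, Krt14, Krt8. Epcam and Cdh1, which define epithelium, stayed below the filter on all 4 arrays, and the part of these markers in the histone values was not tested.

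After etoposide the histone probe sets were lower in both lines, with no class left out. The median difference of the 46 members was -0.87 in each line, a 1.82-fold lower signal, against -0.08 and 0.09 for all named probe sets. In GFP cells 45 of 46 members were below 0, and in p63 cells 46 of 46. Both were below 0 for 45 members, where 31.8% of all named probe sets were below 0 in both lines. For 45 of the 46, both mock arrays read above both etoposide arrays, a pattern shown by 22.6% of named probe sets. In a bulk sample, fewer cells in S phase and less histone RNA per cell cannot be told apart.

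The size of the difference was mostly between 1.5-fold and somewhat over 2-fold. In GFP cells 13 of 46 members (28.3%) were lower by at least 1, where 2.15% of named probe sets were. In p63 cells 19 of 46 (41.3%) were, against 1.55%. No member was higher by 1 or more in either line, where 3.25% of named probe sets were higher in the GFP line and 5.84% in the p63 line. In both lines together 7 members were called lower, against 0.641% of named probe sets: H1f2, H2bc3 and 5 probe sets shared by the H2B genes. These 5 list nearly the same genes and are not separate observations. After cyclic loess none of the 5 reached the threshold in GFP cells. At a looser threshold of 1.5-fold, 43 members were lower in GFP cells and 37 in the p63 line, where 9.51% and 6.09% of named probe sets were. None was higher at that threshold, where 8.5% and 15.9% were. With arrays centred on their medians, the median of all named probe sets in GFP cells moved to -0.20 and the member count there was 21. After cyclic loess normalization that median was -0.003 and the count was 7. The share of all named probe sets called lower was not counted under either scaling, so these counts have no share beside them.

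Among bright probe sets the histones stood at the bottom of the range. Of 752 named probe sets with a mean of at least 11 over the 4 arrays, 17 were members. All 17 were among the 20 with the lowest etoposide difference in GFP cells, which ran from -0.90 to -0.51. In p63 cells 15 of the 17 were among the lowest 20, whose values ran from -2.53 to -0.67. The 752 had medians of -0.04 and 0.06 in GFP and p63 cells. Several of the 17 share probes and gene copies, so they are not separate observations.

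**Figure D1:**
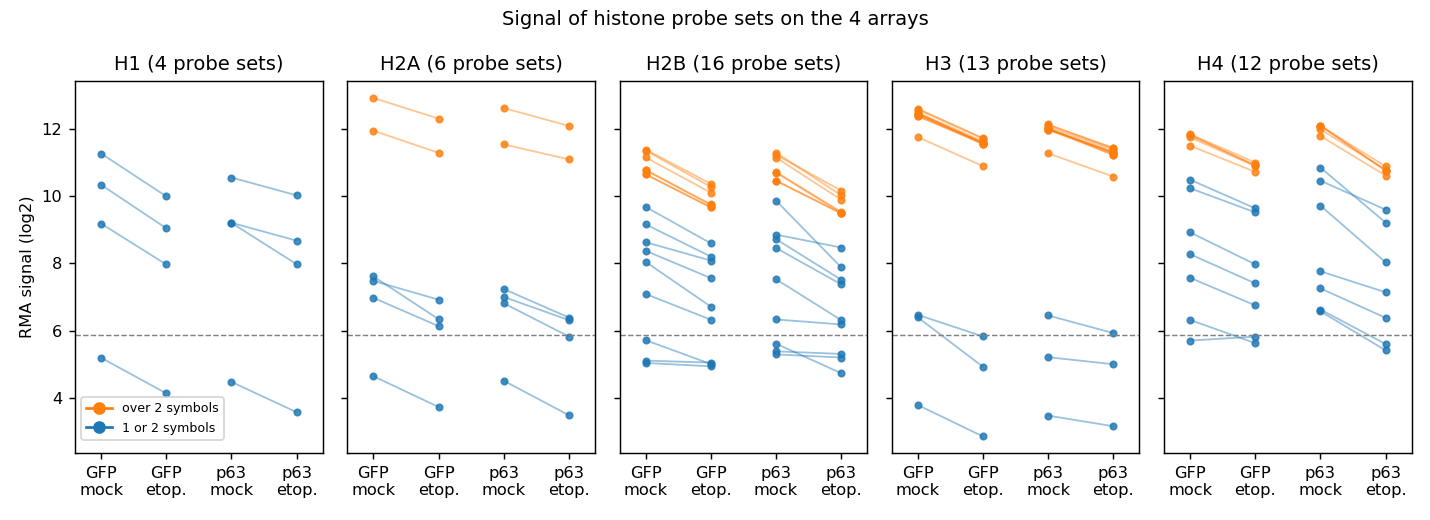
Signal (log2) of all 52 histone probe sets except the one shared by H2bc6 and H1f4, on each of the 4 arrays, by histone class; lines join mock and etoposide (etop.) of one line, and the dashed line is the brightness filter of 5.87. Orange marks probe sets that carry more than 2 gene symbols, and nearly every line slopes down from mock to etoposide.

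Copies within a class share so much sequence that many probe sets cannot be assigned to 1 gene. For H3, 10 probe sets list the same 12 genes (H3c1 to H3c4, H3c6 to H3c8, H3c10, H3c11 and H3c13 to H3c15), and their etoposide differences lay between -0.90 and -0.79 with GFP and between -0.80 and -0.67 with p63. For H4, 5 probe sets list the same 11 genes, for H2B 7 probe sets list 13 or 14 member genes, and for H2A 2 probe sets list 17 member genes, 1 of which is H3c4. The annotation of the H2A sets also names the variant H2ax and a pseudogene, and that of 1 set H2aj, so their signal is not only that of replication-dependent H2A genes. In 2 cases a pair of such probe sets held identical values on all arrays, 1 pair in H2B and 1 in H4, and each pair counts as 2 members above although it is a single measurement. With the probe sets of a class that list more than 2 genes averaged to 1 entry, 26 entries remained, with 11 lower by at least 1 in p63 cells.

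The promoters of the classes carry different sequence elements, which are shown for genes that the results turn on, with the bases that match a searched motif in capitals. RefSeq promoters (GRCm38.p6) were found for 57 of the 62 member genes. Each sequence is the 150 bases before the annotated start, 5′ to 3′ on the gene's own strand. H4c6 (chr13:23551669-23551818, minus strand), H4c3 (chr13:23698459-23698608, minus) and H4c4 (chr13:23581418-23581567, plus) stand for H4. H2bc14 (chr13:21721894-21722043, plus) and H2bc3 (chr13:23746584-23746733, plus) stand for H2B, and H1f5 (chr13:21780626-21780775, minus) and H1f2 (chr13:23738657-23738806, plus) for the linker histones.
H4c6: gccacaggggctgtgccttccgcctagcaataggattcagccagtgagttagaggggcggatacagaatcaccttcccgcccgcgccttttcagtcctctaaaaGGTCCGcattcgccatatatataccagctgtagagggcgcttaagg
H4c3: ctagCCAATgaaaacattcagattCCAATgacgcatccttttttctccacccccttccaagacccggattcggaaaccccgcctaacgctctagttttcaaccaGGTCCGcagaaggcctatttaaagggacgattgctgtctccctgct
H4c4: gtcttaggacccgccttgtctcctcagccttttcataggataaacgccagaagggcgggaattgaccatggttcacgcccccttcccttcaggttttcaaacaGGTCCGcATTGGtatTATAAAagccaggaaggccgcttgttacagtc
H2bc14: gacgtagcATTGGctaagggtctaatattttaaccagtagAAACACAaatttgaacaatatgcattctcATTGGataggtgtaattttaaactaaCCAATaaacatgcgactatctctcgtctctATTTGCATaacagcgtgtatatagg
H2bc3: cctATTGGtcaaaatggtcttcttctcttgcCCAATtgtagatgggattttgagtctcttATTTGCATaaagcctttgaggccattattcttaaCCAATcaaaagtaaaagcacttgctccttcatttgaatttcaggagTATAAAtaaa
H1f5: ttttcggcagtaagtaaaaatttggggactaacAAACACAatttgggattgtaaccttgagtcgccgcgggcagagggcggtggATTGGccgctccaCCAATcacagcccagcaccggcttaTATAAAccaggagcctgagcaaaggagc
H1f2: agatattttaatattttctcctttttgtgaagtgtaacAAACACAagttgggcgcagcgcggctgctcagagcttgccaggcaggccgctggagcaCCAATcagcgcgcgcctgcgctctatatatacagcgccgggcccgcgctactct

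The motifs were searched on both strands of the 250 bases before the start, and a match is a description of letters, not of binding. GGTCCG, which is part of the H4 element called site II that the factor HINFP binds, was found in 8 of 11 H4 promoters, 1 of 14 H2B, 1 of 10 H3 and 0 of the H1 and H2A promoters, where 6.72% of all 32851 promoters of the table hold it. In H4c3, H4c6, H4c9 and H4c18 it begins 46 bases before the start. ATTTGCAT, the octamer of H2B promoters that OCT1 binds, was found in 7 of 14 H2B and 6 of 17 H2A promoters and in none of the other classes, against 1.6% of all promoters. H2A and H2B genes often lie head to head with overlapping promoters, so some of these matches are the same bases read from either side. AAACACA, an element known from H1 promoters, was found in 4 of 5 H1, 2 of 17 H2A and 2 of 14 H2B promoters, the printed one of H2bc14 among them, against 6.25% of all. CCAAT, the box that the trimer NF-Y binds, was in all 5 H1, 17 H2A and 14 H2B promoters, in 8 of 10 H3 and in 3 of 11 H4 promoters, against 33.8% of all. TATAAA was found in between 4 and 7 promoters of each class, against 12.4% of all, and 1 match in the member promoters overlapped a match of another motif.

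The linker histones H1f1, H1f2 and H1f5 were each lower by over 2-fold in GFP cells. H1f1 read 10.34 on the array of GFP mock, 9.04 on GFP etoposide, 9.21 on p63 mock and 8.68 on p63 etoposide. Its etoposide difference was -1.29 with GFP and -0.53 with p63, and the array of GFP mock alone was high. H1f5 read 11.27, 9.99, 10.55 and 10.02 in the same order, with differences of -1.27 and -0.53. Both treated arrays of H1f5 were within 0.03 of each other, while the mock arrays differed by 0.71. H1f2 behaved alike in both lines, at 9.18 and 7.97 with GFP and 9.20 and 7.98 with p63, with differences of -1.21 and -1.23. The probe set shared by H2bc6 and H1f4 read 7.81, 6.69, 7.03 and 6.65, with differences of -1.12 and -0.38, so its only high array was again GFP mock. The AAACACA element stands in the promoters of H1f2, H1f3, H1f4 and H1f5 and not in that of H1f1. H1f3 stayed under the filter on all arrays and read 5.19, 4.14, 4.48 and 3.58. The class median over the 3 kept members was -1.27 with GFP and -0.53 with p63.

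H2A members had medians of -0.66 with GFP and -0.69 with p63 over 5 kept probe sets. The pair of shared probe sets stood at -0.61 and -0.66 with GFP and at -0.53 and -0.45 with p63. H2ac4 was the only H2A member called, and only in GFP cells. It read 7.61 on GFP mock, 6.34 on GFP etoposide, 7.24 on p63 mock and 6.39 on p63 etoposide, differences of -1.27 and -0.85, with both mock arrays above both treated ones. H2ac15 had differences of -0.84 and -0.99, the latter just short of the threshold and resting on a reading of 5.83, below the filter. H2ac1, known as a testis form, was at -0.56 and -0.69. H2ac8 was under the filter on all arrays, with differences of -0.91 and -1.03.

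H2B members, which pair with H2A in the nucleosome, had medians of -1.004 with GFP and -1.19 with p63 over 13 kept probe sets. The 7 shared probe sets ranged from -1.08 to -0.98 with GFP and from -1.27 to -0.97 with p63. They list nearly the same genes and are not separate observations. After cyclic loess none of the 5 that were called in GFP cells reached 1 there, with values of -0.98 to -0.89. Among probe sets of 1 gene the lines diverged more. H2bc14 read 9.16 on GFP mock, 8.20 on GFP etoposide, 9.87 on p63 mock and 7.89 on p63 etoposide. Its difference was -0.96 with GFP and -1.98 with p63, or 3.95-fold lower, the lowest value of any kept member, and p63 mock was its highest array and p63 etoposide its lowest. H2bc18 showed the same order of arrays, at 8.38, 7.56, 8.72 and 7.52, with differences of -0.81 and -1.21. H2bc9 was at -0.54 and -1.08.

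H2bc4 and H2bc8 also read lowest on p63 etoposide, but had GFP mock and not p63 mock as their highest array. H2bc4 read 9.68, 8.60, 8.86 and 8.47 on GFP mock, GFP etoposide, p63 mock and p63 etoposide, with differences of -1.08 and -0.38. H2bc8 read 7.09, 6.33, 6.33 and 6.19, with differences of -0.77 and -0.15. For both genes the other 3 arrays lay close together. H2bc3 was lower in both lines by similar amounts, at 8.05 and 6.72 with GFP and 7.53 and 6.32 with p63, differences of -1.33 and -1.22. H2bc1, a testis form, and H2bc21 and H2bc22 were under the filter on all arrays, with differences between -0.88 and -0.06.

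H3 members had medians of -0.87 with GFP and -0.69 with p63 over 12 kept probe sets, and all 12 had the p63 value above the GFP value, as did 68.4% of named probe sets. After cyclic loess 10 of 12 did, against 54.7%. Of the 12 kept H3 probe sets, 10 list the same genes and are not separate observations. Without the shared probe sets the p63 median was -0.37. The shared probe sets read 11.76 to 12.60 on GFP mock, 10.89 to 11.72 on GFP etoposide, 11.27 to 12.13 on p63 mock and 10.58 to 11.43 on p63 etoposide. H3c15 was the single H3 member called. It read 6.39, 4.92, 5.21 and 5.003, a difference of -1.47 with GFP and -0.21 with p63, with 3 of 4 arrays below the filter. With these readings raised to the filter its GFP difference was -0.52. H3c4 was at -0.64 and -0.52, and H3c7 was under the filter on all arrays at -0.93 and -0.32.

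H4 members had a median of -0.85 with GFP and -1.19 with p63 over 12 probe sets. None was called in GFP cells, where 2.15% of named probe sets were called lower. In p63 cells 9 were called lower, where 1.55% were. In 11 of the 12 the p63 value was the lower, where 31.6% of named probe sets had this order. With arrays centred on their medians 9 of 12 did, against 23.7%. The 5 probe sets shared by 11 genes are among the 9 called and among the 11 of this order, and they are not separate observations. These shared probe sets ran from -0.90 to -0.78 with GFP and from -1.34 to -1.18 with p63. H4c6, whose promoter is printed above, read 8.92 on GFP mock, 7.97 on GFP etoposide, 9.72 on p63 mock and 8.03 on p63 etoposide. Its differences were -0.95 and -1.69, with the treated arrays close together and p63 mock the highest. H4c14 read 10.23, 9.52, 10.85 and 9.21, with differences of -0.72 and -1.64.

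The remaining H4 genes did not all follow this order. H4c4 was nearly the same in both lines, at 10.49 and 9.64 with GFP and 10.46 and 9.60 with p63, with differences of -0.85 and -0.86. H4c9 read 8.27, 7.41, 7.77 and 7.14 and was the 1 H4 member with the larger size in GFP cells, at -0.87 against -0.62. The probe set of H4c17 and H4c11 was at -0.82 and -0.87. H4c3 read 5.71, 5.82, 6.63 and 5.60, so that p63 mock was the only array above the filter. Its difference was 0.12 in GFP cells, the only kept member not below 0, and -1.02 in p63 cells, or -0.76 with dim readings raised to the filter. H4c8 was at -0.69 and -1.16, the latter -0.71 with dim readings raised. The promoters of H4c3, H4c4, H4c6 and H4c9 all hold GGTCCG, while that of H4c8 does not.

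**Figure D2:**
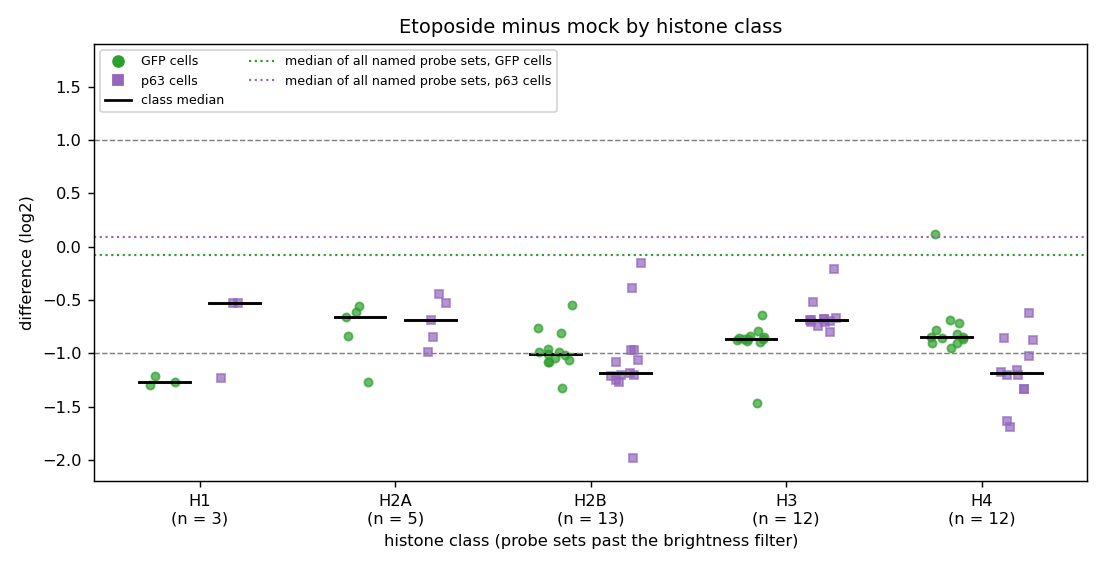
Etoposide minus mock (log2) for the kept probe sets of each class in GFP cells (green circles) and p63 cells (purple squares), 1 array per condition; black bars are class medians, dotted lines the medians of all named probe sets and dashed lines the threshold of 1. H1 and H3 medians are lower in GFP cells (-1.27 and -0.87) than in p63 cells (-0.53 and -0.69), and H2B and H4 medians are lower in p63 cells (-1.19 and -1.19).

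The difference of the etoposide differences, p63 minus GFP cells, had a median of 0.01 over the members and 0.19 over all named probe sets. It was 0.74 for H1, 0.08 for H2A, -0.14 for H2B, 0.17 for H3 and -0.42 for H4, and after cyclic loess 0.54, -0.03, -0.34, 0.04 and -0.53 in the same order. With arrays centred on their medians the values were 0.84, 0.18, -0.05, 0.26 and -0.32. Among the class values only that of H2A changed its direction under these scalings. The median over the members also turned, to -0.17 after cyclic loess. The medians of all named probe sets were 0.28 when centred and 0.04 after cyclic loess, close to the H3 values throughout. H2bc14 (-1.02) and H4c3 (-1.14) were below -1, where 1.23% of named probe sets were, and H3c15 (1.26) was above 1, where 2.85% were. H4c3 and H3c15 each had 3 arrays below the filter. H4c3 passed it only on p63 mock and H3c15 only on GFP mock, so both values rest on dim readings. With 1 array per condition these differences between lines were not tested.

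The comparison of p63 with GFP asks whether p63 alters the histone genes before and after the drug. In mock-treated cells the classes parted. The H4 median was 0.27 higher with p63, while H1 was at -0.71, H3 at -0.46, H2A at -0.37 and H2B at -0.16 (0.02 after cyclic loess), against -0.14 for all named probe sets and -0.18 for the bright ones. Over all members the median was -0.24. H1f1 (-1.13) and H3c15 (-1.18) were called lower, 2 of 46 members or 4.35%, where 3.57% of named probe sets were, and 0 members were called higher against 2.44%. At 1.5-fold, 6 members were lower and 4 higher, where 16.1% and 6.63% of named probe sets were. With dim readings raised to the filter H3c15 was at -0.52, and after cyclic loess H1f1 was at -0.92.

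Within H4, 9 of 12 probe sets were above 0 with p63 in mock-treated cells, where 36.4% of named probe sets were. H4c3 was at 0.92, H4c6 at 0.80 and H4c14 at 0.62, and the 5 shared probe sets lay between 0.24 and 0.29. These 5 list the same genes and are not separate observations. H4c4 (-0.03), H4c9 (-0.51) and the probe set of H4c17 and H4c11 (-0.32) were below 0. The H4 median kept its direction with arrays centred and after cyclic loess, at 0.42 in the latter. Outside H4, H2bc14 (0.71) and H2bc18 (0.35) were the kept members above 0.1. All 12 H3 probe sets were below 0, as were 63.6% of named probe sets. The 10 shared ones, which are not separate observations, lay between -0.48 and -0.36.

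After etoposide the lines lay close together. The member median was -0.22, against 0.02 for all named probe sets, with values from -0.71 (H2bc9) to 0.10 (H3c4). At 1.5-fold, 2 members were lower (1.87% of named probe sets) and none higher (4.59%). At the threshold of 1 none was called in either direction, where 0.538% of named probe sets were lower and 1.24% higher with p63. The H4 median was -0.16, H3 -0.28, H2A -0.22, H2B -0.21 and H1 0.01 (-0.02 after cyclic loess). Over H3 probe sets of 1 gene the median was 0.09, so its direction rests on the shared ones. Of the 12 H4 probe sets, 8 were above 0 in mock-treated and below 0 in etoposide-treated p63 cells, where 11.8% of named probe sets were. Among the 8 are the 5 probe sets that list the same 11 genes, a pair of them identical, so H4 counts here are not of separate observations. The array of p63 mock was the highest of the 4 for 9 of 12 H4 members and for 2 of 13 H2B, 1 of 3 H1 and 0 of the H2A and H3 members. Over named probe sets p63 mock was the highest for 20.7%. The array of p63 etoposide was the lowest for 40 of all 46 members, against 17.4% of named probe sets. Every value that involves untreated p63 cells rests on that single array, and none can be had without it.

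**Figure D3:**
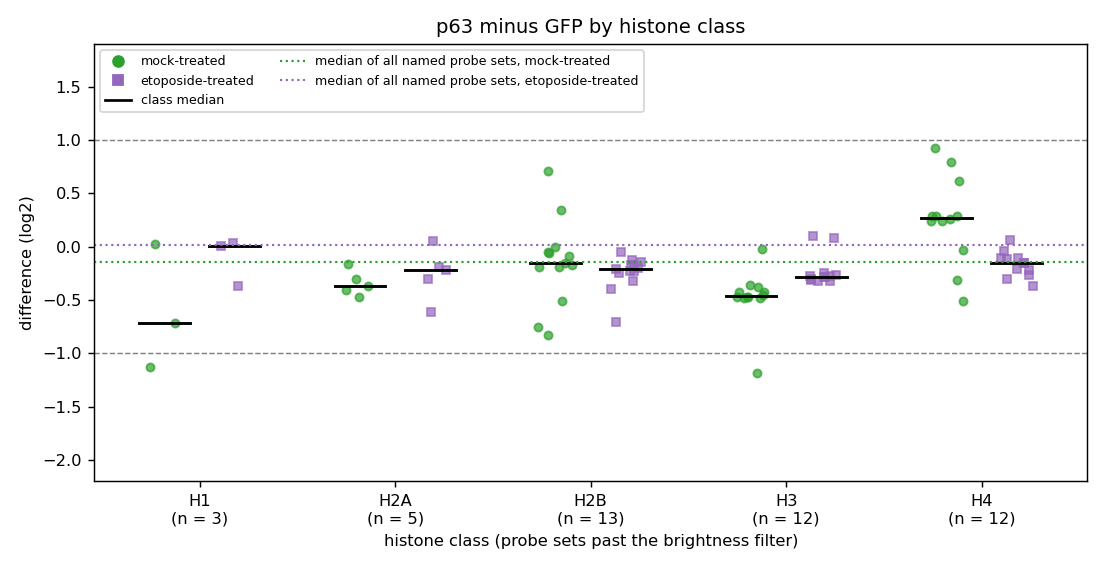
p63 minus GFP (log2) for the kept probe sets of each class in mock-treated (green circles) and etoposide-treated cells (purple squares), 1 array per condition; black bars are class medians, dotted lines the medians of all named probe sets and dashed lines the threshold of 1. In mock-treated cells the H4 median lies at 0.27 and the H1, H2A and H3 medians at -0.71, -0.37 and -0.46, and in etoposide-treated cells all class medians lie between -0.28 and 0.01.

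Genes that act on histone synthesis were examined as lists, with 1 probe set per gene. Genes of histone mRNA 3′ end processing and turnover had medians of -0.09 with GFP and 0.21 with p63 over 21 kept members, against -0.08 and 0.10 for all 10698 kept genes. In this list 0 of 21 were called in either line, where in GFP cells 2.12% of kept genes were lower and 3.52% higher, and in p63 cells 1.33% and 6.28%. For a list of this size that is near the shares of all kept genes. Slbp, which encodes the stem-loop binding protein, read 9.55 on GFP mock, 9.58 on GFP etoposide, 9.02 on p63 mock and 9.71 on p63 etoposide, so p63 mock was its low array. Its differences were 0.03 and 0.69. The members with the largest mean difference were the terminal uridylyltransferases Tut4 (0.70 and 0.81) and Tut7 (0.40 and 0.62), and Eri1 (0.03 and 0.86), an exonuclease that trims the stem-loop.

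Genes of histone transcription and the G1/S transition had medians of -0.05 and 0.15 over 16 members. In GFP cells 1 was lower and 2 were higher (Nfyb and Ccne2), where 2.12% and 3.52% of kept genes were. In p63 cells 1 was lower and 2 were higher (Nfyb, and Cdc25a at 1.08), where 1.33% and 6.28% were. Called in both lines together were 1 lower member, where 0.608% of kept genes were, and 1 higher, where 2.57% were. For so short a list these are counts of single genes. Nfyb, a subunit of the CCAAT-binding NF-Y, was the higher one. It read 8.49, 10.11, 8.63 and 10.19, with both treated arrays above both mock arrays and differences of 1.62 and 1.56. Its partners Nfya (0.02 and 0.18) and Nfyc (-0.50 and -0.00) were not called. Cdkn1b, an inhibitor of CDK2, was the lower one, at 8.31, 6.89, 8.81 and 7.42, with differences of -1.43 and -1.40. Npat stood at -0.44 and 0.65, Hinfp at 0.06 and 0.12, Ccne1 at -0.04 and 0.26, and Ccne2 at 1.04 and 0.68.

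Histone variants listed as replication-independent had medians of -0.20 and -0.14 over 8 members. In GFP cells 0 were called, where 2.12% of kept genes were lower and 3.52% higher. In p63 cells 0 were lower and 1 was higher (H2aj), where 1.33% and 6.28% were. For so short a list these counts are near the shares of all kept genes. H2ax, the variant phosphorylated at DNA breaks, whose mRNA can also end in the stem-loop, read 9.33, 8.43, 8.54 and 7.99, with differences of -0.90 and -0.55. Cenpa, the centromeric H3, was at -0.75 and -0.53 and H2az1 at -0.40 and -0.19. H2aj had the opposite direction, at 0.63 with GFP and 1.25 with p63. Histone chaperones had medians of -0.12 and -0.00 over 19 members, with 0 called in either line, which for a list of this size is again near them. Asf1a was at -0.73 and -0.48, Nap1l4 at 0.13 and 0.74 and Chaf1b, a subunit of CAF-1, at 0.19 and 0.63.

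Genes of DNA replication, which are active in the same phase of the cycle as the histones, did not as a list share their direction. In GFP cells single genes lay on both sides of 0, such as Ticrr (-0.32) and Mcm7 (0.49). What this means for the number of cells in S phase was not tested. The list had medians of 0.13 with GFP and 0.40 with p63 over 42 members. In GFP cells 1 was lower (Dbf4, -1.15) and 1 higher (Rrm2), where 2.12% and 3.52% of kept genes were. In p63 cells 0 were lower and 5 were higher (Mcm10, Cdt1, Orc1, Rfc3 and Rrm2), where 1.33% and 6.28% were. Pcna, the sliding clamp, read 11.30, 11.55, 11.11 and 11.62, with differences of 0.25 and 0.50. All 5 had p63 mock as their lowest array, which calling them higher in p63 cells favours. A low p63 mock was not particular to these 5. The median of p63 minus GFP in mock-treated cells was -0.37 over the list, against -0.14 over all kept genes.

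**Figure D4:**
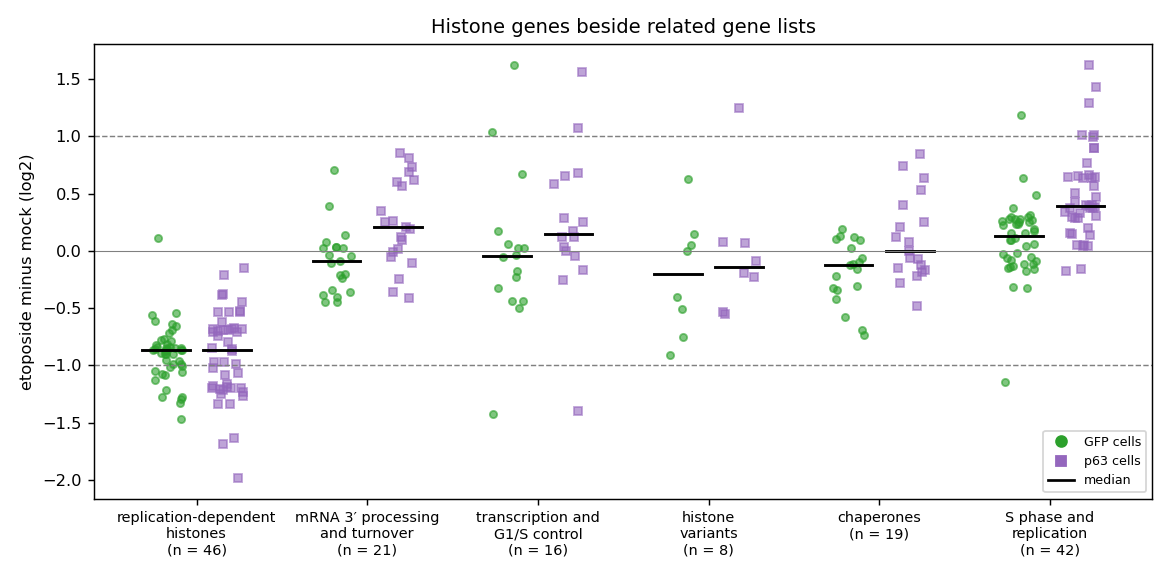
Etoposide minus mock (log2) of the 46 kept histone probe sets beside the kept genes of 5 related lists, in GFP cells (green circles) and p63 cells (purple squares), 1 array per condition; black bars are medians and dashed lines the threshold of 1. The histone medians lie at -0.87 in both lines, and the medians of the other lists lie between -0.20 and 0.40.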

How the data were processed

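Total RNA of 4 samples was measured on the Affymetrix Mouse Gene 1.0 ST platform with 1 array per condition. Per the submitters' processing notes the authors used Affymetrix Expression Console and RMA (version not given here), and the deposited values are RMA signals on the log2 scale. RMA quantile-normalizes arrays, so an equal change of all RNA cannot be seen.

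Genes were named from the platform annotation of 2016. Differences of deposited log2 values were taken per probe set with Python 3.11.15 (pandas 2.3.3, numpy 2.4.6). With 1 array per condition no test was run and no depth or replicate error can be given: the number of arrays limits the precision. A call was a difference of 1 or more in size. Probe sets were kept where the highest of 4 values reached the 50th percentile (5.87). The script's arithmetic for differences and calls was checked on simulated arrays with known changes, which says nothing about chance in the real arrays.

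Members named are those called in any comparison, the highest and lowest of each class by mean signal and by mean etoposide difference, and the shared probe sets. Genes of the companion lists named are those called in both lines and, where a list had none, up to 3 with the largest mean difference. Other members and genes are given for completeness. Members and lists were chosen with earlier results of these data known.

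Alternatives were no filter, the 75th percentile, a 1.5-fold threshold, arrays centred on their medians, cyclic loess (limma 3.58.1 in R 4.3.3), dim readings raised to the filter, probe sets of 1 gene, and 1 entry per symbol list. Shared probe sets averaged by class were added after seeing the data. The series' text lists the GFP etoposide condition 2 times, and groups were taken from each sample's own labels.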

Additional observations from a re-analysis of the deposited data

Results flagged for a closer look

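Some histone probe sets had differences of opposite sign in the conditions compared, each at least 0.1 from 0. With 1 array per condition none of these differences was tested. In the etoposide comparison, H4c3 stood at 0.12 with GFP and -1.02 with p63, which is -1.14 as a difference between lines. Only p63 mock read above the filter for H4c3, so its sign in GFP cells rests on readings below it. In the p63 comparison the same 4 readings of H4c3 gave 0.92 without the drug and -0.22 with it, again -1.14 apart. H2bc14 stood at 0.71 without the drug and -0.32 with it, -1.02 apart. H4c14 stood at 0.62 and -0.30, -0.92 apart, and H4c8 at 0.26 and -0.21, -0.47 apart. For H4c8 both etoposide arrays read below the filter.

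The 5 probe sets shared by 11 H4 genes showed the same order with smaller values. The pair with identical readings stood at 0.28 and -0.16, -0.44 apart. The other 3 were at 0.24 and -0.11, -0.36 apart, at 0.24 and -0.10, -0.35 apart, and at 0.29 and -0.11, -0.40 apart. These share genes and probe sequence, and all of the values use the p63 mock array.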

How the results depend on the processing

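Every class median and every member median after etoposide stayed below 0 in both lines under each alternative run. No paired analysis was possible because each condition holds 1 array. Etoposide medians that moved by at least 0.1, counts that moved by over 1.5 times and directions that turned are as follows, and then the p63 medians that moved. With arrays centred on their medians, the GFP etoposide medians were -0.99 for all members, -1.39 for H1, -0.78 for H2A, -1.13 for H2B, -0.99 for H3 and -0.97 for H4, with 21 called lower. After cyclic loess the GFP medians were -1.17 for H1 and -0.89 for H2B, with 7 called lower. The difference of etoposide differences then turned to -0.17, the p63 median in etoposide-treated cells to -0.023 for H1 and in mock-treated cells to 0.018 for H2B, with 1 member called lower with p63 in mock-treated cells. With no filter the p63-cell etoposide medians were -0.72 for H1 and -1.07 for H2B, and H1 with p63 after etoposide turned to -0.18. With the 75th percentile they were -0.49 for H2A and -0.97 for all members, with 1 called lower with p63 in mock-treated cells, as with dim readings raised. Over probe sets of 1 gene the etoposide medians in GFP cells were -0.84 for H2A, -0.89 for H2B and -1.06 for H3, and in p63 cells -0.85 for H2A and -0.37 for H3. There 7 were called lower in GFP and 9 in p63 cells of 20, the difference of differences was -0.012, and H3 with p63 after etoposide was 0.089. With 1 entry per symbol list 12 of 28 were called lower in p63 cells, and with shared probe sets averaged 11 of 26. In both the H3 median there was -0.52, the difference of differences -0.012, and H3 with p63 after etoposide 0.078. At 1.5-fold, 43 members were lower in GFP and 37 in p63 cells after etoposide. At that threshold 6 were lower and 4 higher with p63 in mock-treated cells, and 2 lower in etoposide-treated cells. For p63 against GFP in mock-treated cells, the medians after cyclic loess were -0.53 for H1, -0.25 for H2A, -0.32 for H3 and 0.42 for H4, and over probe sets of 1 gene -0.34 for H2B, -0.60 for H3 and 0.44 for H4. Counts over fewer entries or at another threshold cannot be set directly against the main counts. The cause of a move was not tested for any alternative. The share of all named probe sets called lower was not counted under the scalings.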

Other observations

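Further histone genes that carried Hist names in older annotation, but whose present symbols fall outside the families examined, gave these values. H4f16, formerly Hist4h4, read 8.16 on GFP mock, 7.61 on GFP etoposide, 8.41 on p63 mock and 7.48 on p63 etoposide, with etoposide differences of -0.55 and -0.94 and p63 differences of 0.25 and -0.14. It thus had the order of arrays seen for most H4 probe sets, p63 mock highest and p63 etoposide lowest. H2aw, formerly Hist3h2a, read 9.08, 8.51, 8.74 and 8.44, with differences of -0.57 and -0.30 after etoposide. H2bu2, H2bu1-ps and H1f6, the testis H1, stayed below the filter on all arrays. By older cluster name, the 17 kept single-gene probe sets of Hist1 had etoposide medians of -0.87 and -0.86 in GFP and p63 cells. The 3 of Hist2 (H2bc18, H3c15 and H4c14) had medians of -0.81 and -1.21, both of them the values of H2bc18. These 3 ranged from -1.47 to -0.72 in GFP cells and from -1.64 to -0.21 in p63 cells. H3c15 had 3 arrays below the filter, and a difference between the clusters was not tested.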
